A study of Homo sapiens with 16 samples.

Results

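MOLM-13 is a human acute myeloid leukaemia cell line that carries an MLL fusion, a kind of rearrangement that keeps blood progenitors in a self-renewing, myeloid state. Cells in RPMI1640 medium with 10% FBS were treated for 4 days with a PRMT5 inhibitor (PRMT5i) at 1 µM or with the vehicle DMSO at 0.005%. The 8 libraries compared here, 4 with PRMT5i and 4 with DMSO, come from a set of 16 whose other 8 were treated with an EZH2 inhibitor (EZH2i) alone or with both inhibitors, the combination. No compound name is given in the labels. Nor do they say whether the replicates are separate cultures, so every p-value measures only the spread between these libraries.

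PRMT5 is the main enzyme that adds symmetric dimethyl marks to arginines of histones, of the Sm proteins of the spliceosome and of many regulators of transcription and DNA repair. It works in a complex with WDR77, and cycling blood progenitors and leukaemia cells depend on it. In myeloid leukaemia, a slower cell cycle and a move towards monocyte or granulocyte features are often seen together, so both kinds of genes were followed here with the surface proteins and the metabolic enzymes that mark each state.

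The libraries held 51261664, 51408799, 43587387 and 40587374 expected counts with PRMT5i, against 41927884, 31142456, 46432530 and 52885899 with DMSO. Most markers of MOLM-13 were present in both groups. FUT4 (CD15) was lower with PRMT5i, at 90.1 to 100.2 CPM against 105.7 to 136.4 CPM with DMSO. For MPO, SPI1, PTPRC and MEIS1 the ranges of the groups overlapped. CD33 measured 111 to 121 CPM with PRMT5i, against 73.2 to 87.6 CPM with DMSO, FLT3 measured 959 to 1037 CPM with PRMT5i, against 579 to 810.2 CPM with DMSO, and HOXA9, which shares 13.9% of its exon bases with HOXA10-AS, measured 70.7 to 75.7 CPM with PRMT5i, against 52.4 to 58.5 CPM with DMSO. CD34, CD163, CD3E, EPCAM, KRT19, CDH5, ALB and HBB had between 0 and 4 counts in any library. CD14 and ANPEP (CD13), the latter a marker of MOLM-13, stayed under 1 CPM (the count scaled to the size of its library). So did the non-blood markers COL1A1 and COL1A2. KRT18, another non-blood marker, was expressed, at 16.6 to 18.6 CPM with PRMT5i against 10.4 to 14.6 CPM with DMSO. PRMT5 itself measured 120.5, 123, 119 and 115 CPM with PRMT5i, against 105, 129, 112 and 118 CPM with DMSO, so its own RNA did not pass the test (log2 fold change 0.04 ± 0.08, SE). An inhibitor of the enzyme need not change that RNA, and the gene shares 27.1% of its exon bases with PRMT5-AS1, so it is no check of the labels. DMSO replicate 1 stood apart: its TMM factor was 0.861 and 1.70% of its counts were mitochondrial, against 0.213% to 0.518% in the other DMSO libraries and 0.361% to 0.690% with PRMT5i.

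The first principal component of the 8 libraries held 49.1% of the variance and placed all PRMT5i libraries at 33.1 to 47.5 and all DMSO libraries at -59.5 to -31.9. Of 16555 genes tested, 5847 passed an adjusted p of 0.05 in edgeR's quasi-likelihood test with Benjamini-Hochberg adjustment, which is 35.3% of them. With PRMT5i, 2824 genes (17.1%) were higher and 3023 (18.3%) were lower. By at least 1 on the log2 scale, a change of at least 2-fold, 813 genes (4.91%) were higher and 751 (4.54%) lower. Without DMSO replicate 1 the count was 5769. With replicates 1 and 2 alone it was 1469 and with replicates 3 and 4 alone it was 5613, a choice of libraries made after seeing the data. Of 122 counts of higher or lower members over the 61 lists below, 93 moved by more than 1.5 times with replicates 1 and 2 alone and 20 when only the PRMT5i and DMSO libraries were fitted. The PRMT5i and DMSO libraries did not overlap in 33.8% of the genes tested. In bulk RNA of this kind, fewer cells of a type and less RNA per cell cannot be told apart.

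The gene lists were chosen with earlier results of these data known, so their counts describe the change and are no test of it. Of 407 tested members of the proliferation lists, 17 (4.2%) rose and 237 (58.2%) fell, with a median log2 fold change of -0.61. Of 337 members of the surface protein lists, 119 (35.3%) rose and 45 (13.4%) fell, with a median of 0.22. Of 159 members of the differentiation lists, 58 (36.5%) rose and 23 (14.5%) fell, with a median of 0.26. Of 760 members of the metabolic lists, 117 (15.4%) rose and 229 (30.1%) fell, with a median of -0.07. In 16 of the 61 lists, some tested members were under 0.242 CPM, the level of the filter on low counts, in every DMSO library (at most 6 a list) or in every PRMT5i library (at most 5), so they passed the filter only through other groups. Over all genes tested, 17.1% rose and 18.3% fell, and the median was -0.0032.

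**Figure D1:**
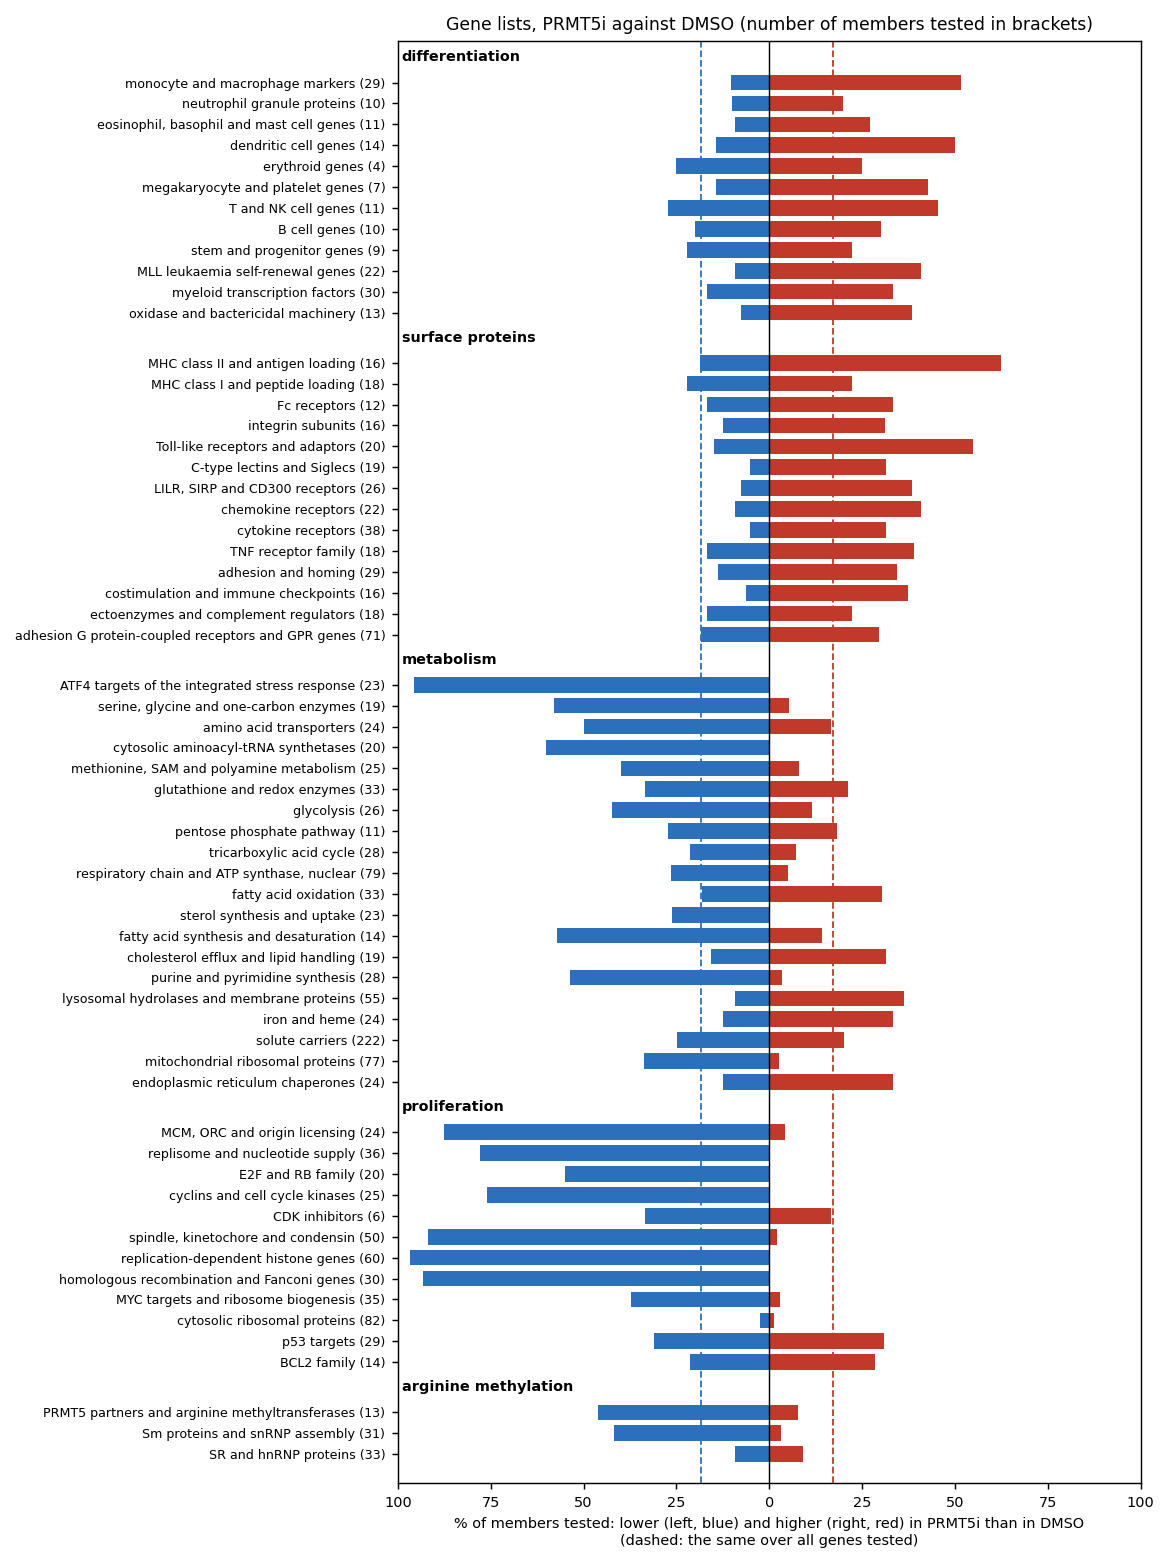
Share of the tested members of each of 61 gene lists that were lower (left, blue) or higher (right, red) with PRMT5i than with DMSO, in percent on the horizontal axis, with the number of members tested in brackets. The dashed lines mark the same shares over all genes tested, 18.3% lower and 17.1% higher, and the bars of ATF4 targets, histone genes and spindle genes reach farther left than 90% while those of MHC class II genes and Toll-like receptors reach farther right than 50%.

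Of 35 monocyte and macrophage markers listed, 29 were tested, and 15 rose and 3 fell, 51.7% and 10.3% of those tested against 17.1% and 18.3% of all genes tested, with a median log2 fold change of 0.50. The phagocyte oxidase is the membrane complex that makes superoxide. NCF4, its p40phox subunit, had 97.7, 98.1, 97.05 and 90.1 CPM with PRMT5i, against 79.1, 74.6, 76.4 and 73.6 CPM with DMSO, a log2 fold change of 0.33 ± 0.09 (SE; edgeR adjusted p = 0.00844) that left no overlap. NCF1, the p47phox subunit, rose by 1.14 ± 0.22, but near-identical pseudogene copies make its counts uncertain. CYBB, the catalytic subunit, measured 13.6 to 21.7 CPM with PRMT5i, against 6.89 to 14.5 CPM with DMSO, and although it passed the test (adjusted p = 0.0457 in edgeR), the groups overlapped and the call was lost without DMSO replicate 1 or 2 or PRMT5i replicate 2, 3 or 4 (log2 fold changes of 0.44 to 0.67). CYBA did not pass. In all, 5 of 13 oxidase and bactericidal genes rose and 1 fell. The count of 5 became 3 without PRMT5i replicate 3 or without PRMT5i replicate 4. The lower monocyte markers included VSIG4 and FCGR1A, both near the threshold (edgeR adjusted p = 0.0338 and 0.0395), and the count of 3 was 0 without PRMT5i replicate 2 or 4 and 1 without PRMT5i replicate 1 or DMSO replicate 3. Where the calls were lost by leaving out 1 library, the log2 fold changes were -0.53 to -0.41 for VSIG4 and -0.41 to -0.19 for FCGR1A, which has near-identical copies.

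CSF1R, the receptor for macrophage colony-stimulating factor, had 26.9, 35.3, 41.2 and 38.9 CPM with PRMT5i, against 6.903, 24.8, 16.4 and 11.3 CPM with DMSO, with DMSO replicate 1 lowest of all and no overlap. CD86, a ligand that costimulates T cells, had 21.9, 20.5, 27.3 and 28.9 CPM with PRMT5i, against 15.4, 10.9, 14.2 and 16.3 CPM with DMSO, a log2 fold change of 0.79 ± 0.14. CX3CR1, the fractalkine receptor of patrolling monocytes, rose by 1.23 ± 0.19. CD14, the classical monocyte marker, stayed at or under 0.493 CPM in every library, and CD68, ITGAX and CCR2 did not pass the test. The 1 bactericidal gene that fell was SLC11A1, the metal ion pump of the phagosome, with 0.999, 1.19, 0.793 and 0.969 CPM with PRMT5i, against 8.51, 7.42, 4.64 and 5.01 CPM with DMSO. The groups were far apart, and the log2 fold change was -2.68 ± 0.25.

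Of 22 dendritic cell genes listed, 14 were tested, and 7 rose and 2 fell, with a median of 0.75, and 2 of the 14 were under 0.242 CPM in every DMSO library and 1 in every PRMT5i library. CD1D, which presents lipid antigens, had 38.4, 34.2, 38.3 and 37.3 CPM with PRMT5i, against 21.1, 11.8, 15.8 and 15.98 CPM with DMSO. The groups were far apart, and the log2 fold change was 1.19 ± 0.12 (edgeR adjusted p = 1.42e-06). ZBTB46, a transcription factor of classical dendritic cells, had 5.08, 4.51, 5.55 and 5.15 CPM with PRMT5i, against 1.58, 2.99, 2.56 and 2.51 CPM with DMSO, which did not overlap either. The 2 that fell were BATF3, a factor needed for cross-presenting dendritic cells in mice, which had 0.8795, 0.953, 0.886 and 0.895 CPM with PRMT5i, against 6.88, 8.48, 5.66 and 6.28 CPM with DMSO, and TCF4, the factor of plasmacytoid dendritic cells, which fell by 0.81 on the log2 scale. Every PRMT5i library was under 1 CPM for BATF3, and its log2 fold change was -2.91 ± 0.19.

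Of 30 transcription factors of the myeloid lineage, 10 were higher and 5 lower. BCL6, a repressor of germinal centre and inflammatory genes, had 7.76, 6.83, 10.2 and 8.13 CPM with PRMT5i, against 1.72, 2.93, 2.897 and 3.06 CPM with DMSO. All PRMT5i libraries lay far above the highest DMSO library, a log2 fold change of 1.63 ± 0.16. PRDM1, another repressor, rose by 1.31 ± 0.17, and IRF8, which steers progenitors to monocytes and dendritic cells, rose by 0.33 ± 0.07. IKZF1 had 293, 297, 294 and 291 CPM with PRMT5i, against 167, 217, 201 and 199 CPM with DMSO, a narrow band with PRMT5i above the DMSO range. CEBPG fell to a narrow band as well, with 86.9, 90.6, 87.97 and 91.2 CPM with PRMT5i, against 158, 136, 157 and 154 CPM with DMSO, and EGR1, an immediate early factor linked to monocyte fate, fell by 0.90 on the log2 scale. CEBPA and KLF4 did not pass.

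Of 22 self-renewal genes of MLL leukaemia, 9 rose and 2 fell, with a median of 0.29. HOXA10, which shares 16.4% of its exon bases with HOXA10-AS, measured 41.03 to 51.5 CPM with PRMT5i, against 28.9 to 33.3 CPM with DMSO, and HOXA9 rose by 0.40 ± 0.07. RUNX2 had 54.03, 60.3, 51.8 and 52.99 CPM with PRMT5i, against 24.9, 32.9, 35.1 and 28.6 CPM with DMSO, a log2 fold change of 0.85 ± 0.13, with no overlap. FLT3, the receptor kinase of early progenitors, had 1037, 985, 959 and 1016 CPM with PRMT5i, against 810.2, 579, 670.1 and 728 CPM with DMSO, so every PRMT5i library was above the DMSO libraries, by 0.52 ± 0.10. MEF2C, CDK6 and DOT1L did not pass. The 2 lower genes, BCL2 and ZNF521, became 1 when DMSO replicate 2 or 4, or any PRMT5i library, was left out. It was ZNF521 that lost its call, at -0.21 to -0.145, and it did so without DMSO replicate 1 as well. Granule genes showed no common direction, with 2 of 10 higher and 1 lower. The lower one, AZU1, had overlapping groups and no longer passed without PRMT5i replicate 1, 2 or 4 or DMSO replicate 2 or 3 (-0.74 to -0.35). KIT, the receptor for stem cell factor, measured 1.32 to 2.16 CPM with PRMT5i, against 0.0935 to 0.156 CPM with DMSO. Every DMSO library was under 0.242 CPM, the level of the filter, so KIT passed it only through other groups. From this low level its log2 fold change was 3.67 ± 0.29. DNMT3B, a de novo DNA methyltransferase of stem cells, fell to 10.8 ± 0.285 CPM with PRMT5i, against 21.3 ± 1.01 CPM with DMSO (SD, n = 4 each).

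Genes of other blood lineages moved in both directions at mostly low levels. Of 11 T and NK cell genes tested, 5 rose and 3 fell, but 3 of the 11 were under 0.242 CPM in every DMSO library and so passed the filter only through other groups. When only the PRMT5i and DMSO libraries were fitted, 8 were tested, and 2 rose and 3 fell, with a median log2 fold change of 0.0033. The 27 listed members summed to 117 to 136 CPM with PRMT5i, against 88.8 to 122 CPM with DMSO. CD3E stayed at 0 or 1 counts per library. Of 10 B cell genes tested, 2 of them under 0.242 CPM in every DMSO library, 3 rose and 2 fell, with sums over the 19 listed of 15.1 to 15.8 CPM with PRMT5i, against 8.76 to 11.8 CPM with DMSO. Their part in the results was not tested. The count of 5 higher T and NK cell genes was 3 without DMSO replicate 4, and that of 2 lower B cell genes was 0 or 1 without any 1 of the 8 libraries. IL7R, the receptor chain for interleukin 7, had 55.1, 54.1, 51.8 and 54.9 CPM with PRMT5i, against 13.9, 16.8, 13.7 and 15.9 CPM with DMSO. Its PRMT5i libraries clustered tightly above the DMSO range, by 1.84 ± 0.13.

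**Figure D2:**
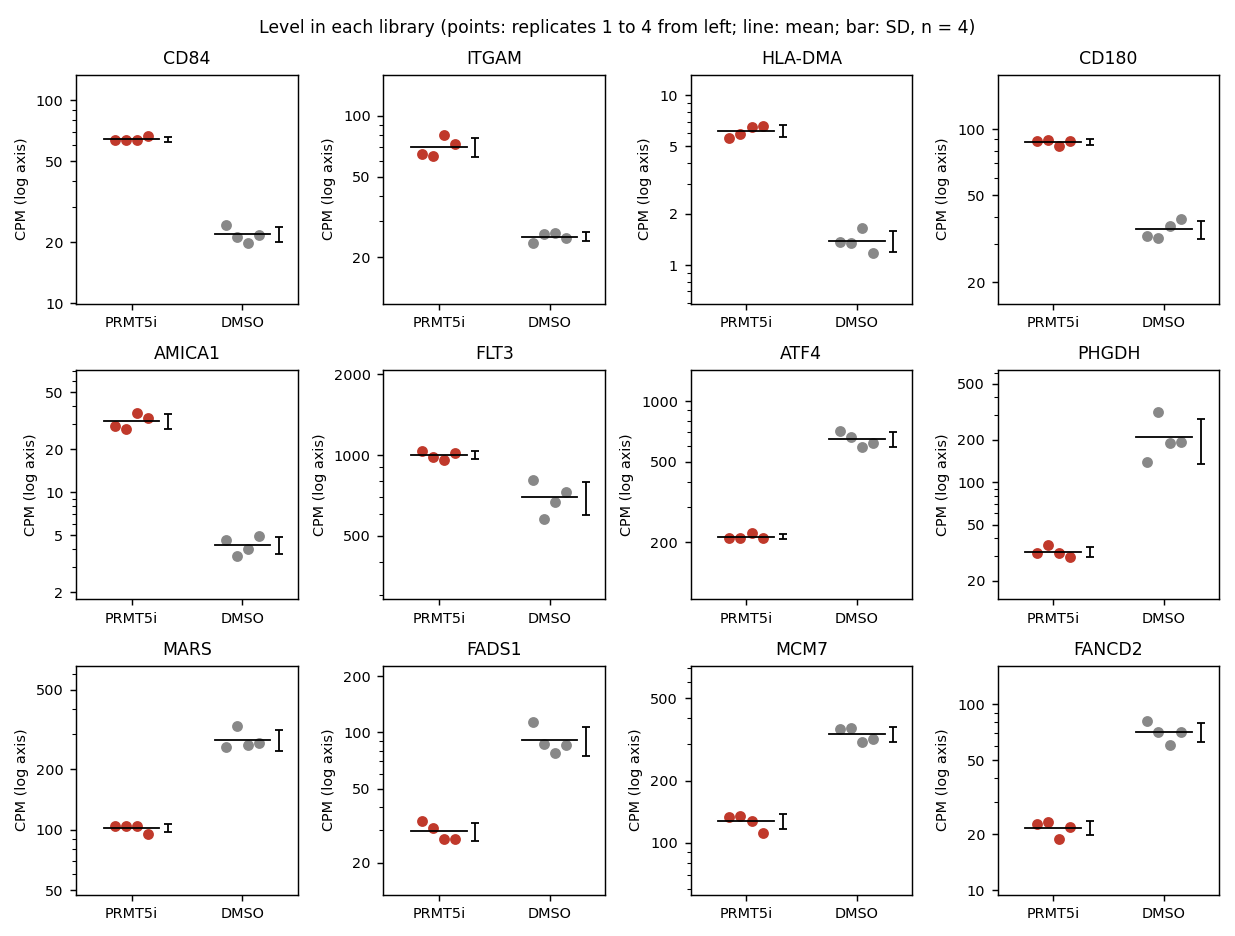
Level in CPM (log axis) of 12 genes in each library, PRMT5i in red on the left and DMSO in grey on the right of each panel, with the mean as a line and the SD as a bar (n = 4). In every panel the groups are apart, with the first 6 genes higher and the last 6 lower with PRMT5i.

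Some of the 15 largest rises and falls among protein-coding genes lay outside the lists. AMICA1 (JAML), an adhesion protein that helps leukocytes cross vessel walls, had 28.9, 27.5, 35.6 and 32.8 CPM with PRMT5i, against 4.63, 3.59, 4.01 and 4.91 CPM with DMSO. All PRMT5i libraries lay far above the highest DMSO library, and the log2 fold change was 2.86 ± 0.13 (edgeR adjusted p = 5.32e-10). MS4A4A, a tetraspan protein of macrophages, had 12.7, 10.97, 15.2 and 17.1 CPM with PRMT5i, against 1.69, 1.06, 2.59 and 3.85 CPM with DMSO. GAPT, an adaptor in the membranes of blood cells, rose by 2.39 ± 0.25, and CACNA2D3, an auxiliary subunit of calcium channels, by 2.53 ± 0.27. MYBPH, a myosin-binding protein of muscle, had 74.1, 80.1, 97.7 and 86.5 CPM with PRMT5i, against 11.2, 19.95, 19.3 and 16.8 CPM with DMSO, again with no overlap. Among the falls, RPS6KA2, a kinase of the MAPK pathway, had 1.74, 1.87, 1.89 and 1.29 CPM with PRMT5i, against 12.6, 16.2, 11.6 and 11.1 CPM with DMSO, and KDM7A, a histone lysine demethylase, had 4.46, 4.79, 3.36 and 3.78 CPM with PRMT5i, against 18.3, 25.7, 35.5 and 34.2 CPM with DMSO. Both were lower in all PRMT5i libraries, with log2 fold changes of -2.92 ± 0.20 and -2.79 ± 0.18 (SE). In KDM7A the DMSO libraries spread widely, with replicates 1 and 2 below replicates 3 and 4.

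Of 19 genes of antigen presentation through MHC class II, 16 were tested, and 10 were higher and 3 lower, with a median log2 fold change of 1.68. Of the 16, 2 were under 0.242 CPM in every DMSO library and passed the filter only through other groups. When only the PRMT5i and DMSO libraries were fitted, 15 were tested, and 8 were higher and 3 lower, with a median of 1.20. HLA-DMA and HLA-DMB form the chaperone that loads peptides on class II molecules. HLA-DMA had 5.62, 5.895, 6.56 and 6.64 CPM with PRMT5i, against 1.36, 1.34, 1.65 and 1.18 CPM with DMSO, a log2 fold change of 2.16 ± 0.15. HLA-DMB had 2.98, 3.31, 3.73 and 4.08 CPM with PRMT5i, against 0.527, 0.468, 0.468 and 0.493 CPM with DMSO, a change of 2.84 ± 0.27. In both genes each PRMT5i library was several times any DMSO library. HLA-DQB1 rose by 2.62 ± 0.19 and HLA-DRB1, a highly polymorphic gene whose counts are therefore uncertain, by 3.08 ± 0.21. CD74, the invariant chain that fills the groove until loading, had 190.2, 202, 286 and 268 CPM with PRMT5i, against 43.4, 128, 126 and 112 CPM with DMSO, with DMSO replicate 1 lowest. CTSS, the protease that trims the invariant chain, rose by 0.45 ± 0.13, a call that was lost when the 8 libraries were fitted alone. The regulators of these genes did not move as a block: CIITA, the master coactivator, rose by 2.31 ± 0.21 (12% of its exon bases are shared with DEXI), RFX5 did not pass, and RFXAP and RFXANK fell, with log2 fold changes of -0.49 ± 0.17 and -0.36 ± 0.12, RFXANK with 14.5% of its exon bases shared with another gene. The call for RFXAP was lost without DMSO replicate 2, 3 or 4 or PRMT5i replicate 1 or 2 (-0.50 to -0.41), and that for RFXANK without PRMT5i replicate 4 (-0.30). HLA-DOB, which restrains the loading chaperone, fell by 0.72, with 29.7% of its exon bases shared with another gene.

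Class II promoters carry a conserved box that ends in an inverted CCAAT (Y box), bound by NF-Y. Of the 16 class II list members tested, 10 rose and 3 fell. The promoters of the 2 class II genes with the smallest p among those with a RefSeq promoter record are shown here. They span the 250 bases before to 50 bases after the RefSeq transcription start in GRCh38.p14, at chr6:32589799-32590098 for HLA-DRB1 and chr6:32953048-32953347 for HLA-DMA, both on the minus strand, and capitals mark ATTGG or its reverse complement.
HLA-DRB1: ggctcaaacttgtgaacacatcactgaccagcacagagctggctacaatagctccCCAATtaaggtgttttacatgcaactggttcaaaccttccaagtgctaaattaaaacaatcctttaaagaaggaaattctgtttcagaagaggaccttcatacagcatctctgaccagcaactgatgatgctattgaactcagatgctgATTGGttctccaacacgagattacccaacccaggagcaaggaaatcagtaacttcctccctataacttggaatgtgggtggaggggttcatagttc
HLA-DMA: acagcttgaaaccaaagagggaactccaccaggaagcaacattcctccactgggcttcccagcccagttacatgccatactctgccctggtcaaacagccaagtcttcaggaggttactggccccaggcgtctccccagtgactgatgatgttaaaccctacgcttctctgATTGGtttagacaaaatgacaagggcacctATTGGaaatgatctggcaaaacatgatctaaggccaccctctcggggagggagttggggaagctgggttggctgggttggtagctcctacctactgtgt
The matches begin 195 and 46 bases before the start in HLA-DRB1 and 79 and 49 bases before it in HLA-DMA. The 5 letters are common: 10 of 13 class II list members with a promoter record hold them on either strand, as do 35.7% of all 27305 promoters of the table. In lists with more lower than higher genes, 10 of 13 serine and one-carbon, 31 of 44 spindle and 13 of 21 licensing promoters held them. So did 17 of 32 replisome, 10 of 19 ATF4 target, 7 of 16 aminoacyl-tRNA synthetase and 4 of 19 amino acid transporter promoters.

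Of 18 MHC class I genes, 4 rose and 4 fell, and the median was -0.03. HLA-E had 330.4, 326, 329 and 315 CPM with PRMT5i, against 422, 394, 435 and 434 CPM with DMSO, and fell by 0.37 ± 0.08 on the log2 scale, and HLA-B, HLA-C and B2M did not pass. TAP1, a subunit of the peptide transporter, rose by 0.36 ± 0.12, while its partner TAP2, with 32.3% of its exon bases shared with another gene, fell by 1.02. The 4 higher members were 2 without PRMT5i replicate 2. TAP1 lost its call without DMSO replicate 3 or 4 or PRMT5i replicate 1 or 2 (0.30 to 0.36).

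Toll-like receptors and their adaptors rose in 11 of 20 genes tested and fell in 3, with a median of 0.57. CD180, a homologue of TLR4 on B cells and myeloid cells, had 88.8, 88.97, 84.1 and 88.6 CPM with PRMT5i, against 32.6, 31.99, 36.2 and 38.9 CPM with DMSO, an even rise of 1.33 ± 0.08 (edgeR adjusted p = 6.55e-09). TLR2, which senses bacterial lipoproteins, had 69.04, 67.3, 68.5 and 78.2 CPM with PRMT5i, against 47.8, 34.3, 39.9 and 42.5 CPM with DMSO, and its partner TLR1 had 8.54, 8.09, 10.8 and 9.27 CPM with PRMT5i, against 4.85, 2.93, 4.03 and 4.62 CPM with DMSO. Neither receptor overlapped between the groups. TLR4 rose by 0.64 ± 0.13, UNC93B1, which carries endosomal receptors to their site, by 0.51 ± 0.14, and TLR7 fell by 0.67. MYD88, the shared adaptor, had 8.32, 18.8, 26.7 and 25.9 CPM with PRMT5i, against 3.27, 13.5, 7.96 and 4.03 CPM with DMSO, so the groups overlapped although the gene passed the test. With replicates 1 and 2 alone, the number of higher genes among Toll-like receptors and adaptors was 2.

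Of 26 LILR, SIRP and CD300 genes, the paired immunoreceptors, 10 were higher and 2 lower. CD300LB, an activating receptor that signals through TYROBP, had 38.1, 35.9, 39.4 and 35.7 CPM with PRMT5i, against 10.8, 10.5, 11.7 and 11.03 CPM with DMSO, and TYROBP itself had 61.01, 58.6, 57.2 and 51.2 CPM with PRMT5i, against 44.5, 39.8, 39.8 and 44.2 CPM with DMSO. Both were higher in all 4 PRMT5i libraries, by 1.76 ± 0.09 and 0.44 ± 0.10 on the log2 scale. LILRB1 and LILRB2, inhibitory receptors for MHC class I, rose by 0.98 ± 0.11 and 2.06 ± 0.26, though the LILR genes resemble each other and reads may be divided between them. CD300A, an inhibitory member, had 39.4, 37.8, 41.1 and 39.6 CPM with PRMT5i, against 60.3, 51.97, 51.5 and 57.2 CPM with DMSO and TREM1 fell by 0.70, so the family held both directions. CD47, the ligand of SIRPA that stops phagocytosis, did not pass.

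Chemoattractant receptors rose in 9 of 22 genes tested and fell in 2. Of the 22, 1 was under 0.242 CPM in every DMSO library and 2 in every PRMT5i library. Such genes passed the filter only through other groups. The count of 2 lower genes was 1 when only the PRMT5i and DMSO libraries were fitted. PTAFR, the receptor for platelet-activating factor, had 22.7, 23.8, 31.8 and 33.4 CPM with PRMT5i, against 5.101, 5.83, 6.75 and 6.81 CPM with DMSO. The PRMT5i libraries were all well above the highest DMSO library, a log2 fold change of 2.18 ± 0.15. C5AR2, the second receptor for the complement fragment C5a, had 6.58, 6.56, 7.09 and 7.11 CPM with PRMT5i, against 1.89, 1.81, 1.67 and 1.97 CPM with DMSO, a change of 1.89 ± 0.17. C5AR1, the classical receptor for the same fragment, fell to 0.127 ± 0.0767 CPM with PRMT5i, against 1.03 ± 0.251 CPM with DMSO (SD, n = 4 each), a low level. CXCR2 had 18.9, 19.3, 21.2 and 20.4 CPM with PRMT5i, against 5.02, 9.88, 8.94 and 9.37 CPM with DMSO, and CXCR3 had 3.898, 4.12, 4.78 and 3.68 CPM with PRMT5i, against 0.444, 0.686, 0.669 and 0.7104 CPM with DMSO. CCR1, CCR2 and CXCR4 did not pass.

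Cytokine receptors rose in 12 of 38 genes tested and fell in 2. Of the 38, 2 were under 0.242 CPM in every DMSO library and passed the filter only through other groups. IL2RA, the alpha chain of the interleukin 2 receptor, had 11.1, 11.7, 7.28 and 7.18 CPM with PRMT5i, against 2.72, 2.81, 3.48 and 3.04 CPM with DMSO, with PRMT5i replicates 1 and 2 above replicates 3 and 4 and all above DMSO. IL13RA1 and IL4R, which pair as the type II interleukin 4 receptor, rose by 0.85 ± 0.12 and 0.78 ± 0.10. CSF2RB, the common beta chain for interleukin 3 and GM-CSF, had 26.1, 27.3, 26.2 and 24.8 CPM with PRMT5i, against 17.5, 16.2, 17.4 and 16.1 CPM with DMSO, while its alpha partners IL3RA and CSF2RA did not pass. EPOR, the erythropoietin receptor, had 5.08, 5.95, 4.55 and 5.42 CPM with PRMT5i, against 8.82, 11.9, 11.99 and 11.2 CPM with DMSO, and fell by 1.06 ± 0.12. The other lower gene, IL9R, had overlapping groups, and its call was lost without DMSO replicate 1, 3 or 4 or PRMT5i replicate 1, 2 or 4 (-0.71 to -0.53), which left 1 lower gene.

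Adhesion molecules rose in 10 of 29 genes tested and fell in 4, and integrin subunits rose in 5 of 16 and fell in 2. ITGAL, the alpha chain of LFA-1, had 965, 969.6, 1048 and 989 CPM with PRMT5i, against 486, 653, 594 and 596 CPM with DMSO, a log2 fold change of 0.77 ± 0.10 with no overlap. ITGAM (CD11b), a maturation marker of monocytes and granulocytes, had 64.5, 63.5, 80.02 and 72.1 CPM with PRMT5i, against 23.5, 26.1, 26.5 and 24.96 CPM with DMSO, a rise of 1.47 ± 0.10, also with no overlap. ITGA4, a subunit of VLA-4, had 249.6, 235, 207 and 219 CPM with PRMT5i, against 197, 137, 157 and 161 CPM with DMSO. ITGA6, a laminin receptor subunit, rose by 1.96 ± 0.17. ITGB2, the beta chain that pairs with ITGAL and ITGAM, did not pass. CD84, a self-ligand receptor of the SLAM family, had 63.4, 63.8, 63.4 and 66.9 CPM with PRMT5i, against 24.4, 21.3, 19.9 and 21.8 CPM with DMSO, an even rise of 1.56 ± 0.08 (edgeR adjusted p = 2.13e-09). PECAM1 (CD31) had 108, 131, 137 and 142 CPM with PRMT5i, against 30.4, 76.2, 66.3 and 51.5 CPM with DMSO, and SELPLG (PSGL-1), the ligand by which leukocytes roll on selectins, had 123, 126, 138 and 124 CPM with PRMT5i, against 66.6, 103, 77.1 and 71.1 CPM with DMSO. DMSO replicate 1 was the lowest of the DMSO libraries in both. CD9, a tetraspanin, fell to 2.52 ± 0.7402 CPM with PRMT5i, against 7.21 ± 2.895 CPM with DMSO. ITGAE and ITGB1 fell, with log2 fold changes of -0.72 ± 0.11 and -0.31 ± 0.10, and ITGB1 lost its call without DMSO replicate 1 or 4 or PRMT5i replicate 3 (-0.31 to -0.22). The count of 2 lower integrins was 1 without DMSO replicate 4 or PRMT5i replicate 3.

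Among costimulatory and checkpoint genes, 6 of 16 rose and 1 fell. TNFSF4 (OX40 ligand) rose by 1.29 ± 0.21, TNFSF13B (BAFF) by 0.86 ± 0.22 and CD80, with 24.9% of its exon bases shared with TIMMDC1, by 2.20 ± 0.19. PVR (CD155), a ligand of NK cell receptors, had 43.7, 43.1, 37.7 and 37.4 CPM with PRMT5i, against 67.8, 67.3, 57.01 and 57.2 CPM with DMSO, the 1 gene of the list that fell. Of the complement regulators, CD59 had 6.08, 5.84, 7.96 and 9.35 CPM with PRMT5i, against 1.69, 1.09, 1.89 and 1.82 CPM with DMSO, a rise of 2.15 ± 0.23, whereas CD55 had 22.6, 21.1, 21.8 and 20.9 CPM with PRMT5i, against 46.8, 32.05, 30.3 and 36.6 CPM with DMSO, and fell by 0.75 ± 0.12. Both proteins sit on the membrane by a lipid anchor and protect cells from complement, at different steps.

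**Figure D3:**
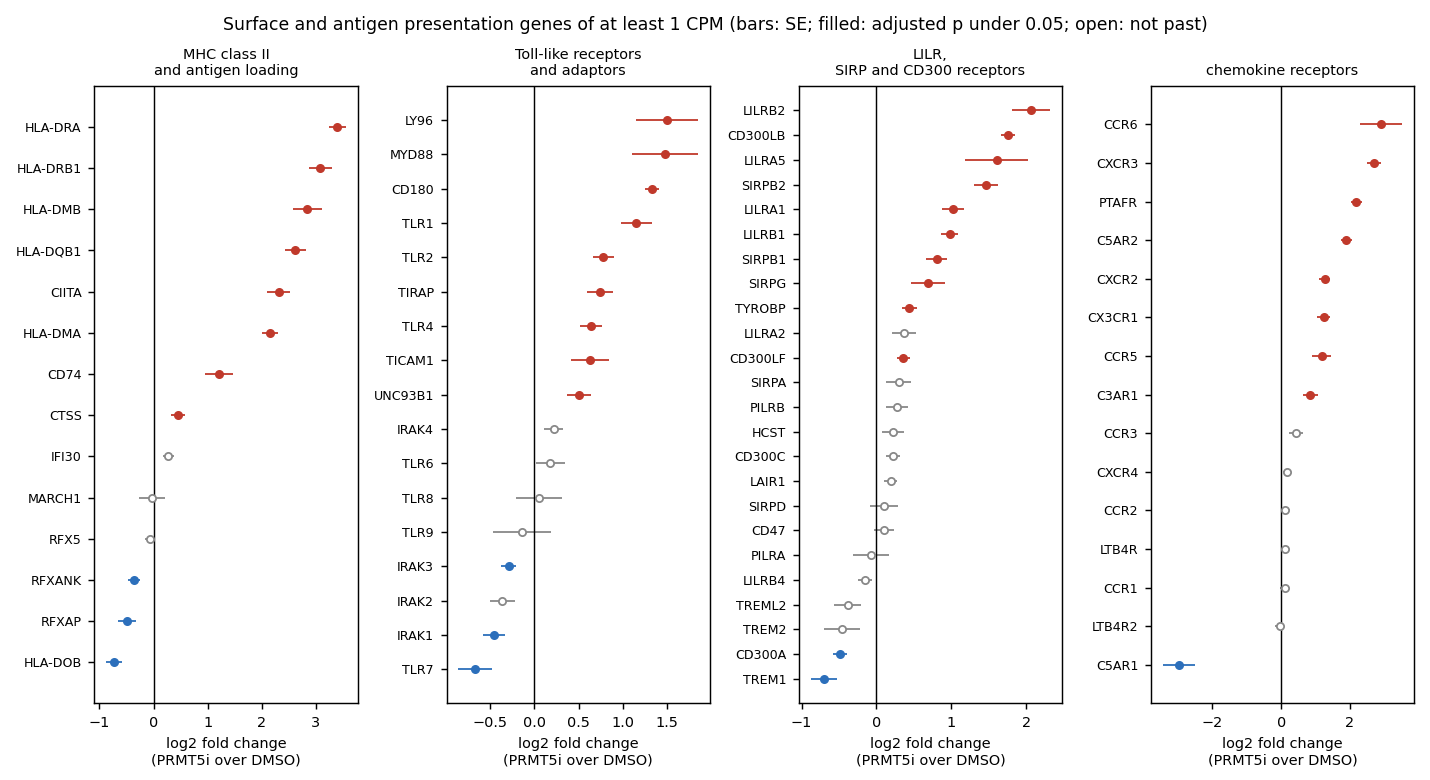
Log2 fold change, PRMT5i over DMSO, of the genes of 4 surface lists that averaged 1 CPM or more in either group, with the SE as a bar. Filled points passed the adjusted p of 0.05 (red higher, blue lower) and open points did not. MHC class II genes reach above 3, and C5AR1 is the lowest chemoattractant receptor at -2.97.

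The integrated stress response raises ATF4, a transcription factor that switches on genes for making, importing and charging amino acids. Of 23 ATF4 targets tested, 22 fell, 16 with a log2 fold change of -1 or lower, and 0 rose, with a median of -1.60. ATF5 was the 1 gene that did not pass. ATF4 had 211, 209, 222 and 211 CPM with PRMT5i, against 712, 668, 589.5 and 620.0 CPM with DMSO. The PRMT5i libraries lay within a narrow band far below DMSO, a log2 fold change of -1.60 ± 0.14 (edgeR adjusted p = 2.37e-07). ATF3, a stress factor, had 4.74, 4.73, 4.11 and 4.65 CPM with PRMT5i, against 16.1, 15.4, 16.1 and 15.8 CPM with DMSO, and JDP2, a related factor, had 5.02, 5.23, 5.599 and 5.15 CPM with PRMT5i, against 18.2, 33.4, 26.2 and 22.8 CPM with DMSO. PCK2, the mitochondrial enzyme that makes phosphoenolpyruvate, had 28.3, 29.2, 29.6 and 26.2 CPM with PRMT5i, against 101.4, 138, 113 and 112 CPM with DMSO, and GPT2, the mitochondrial alanine transaminase, fell by 1.72. VEGFA, the angiogenic growth factor, fell by 1.88. Neither PCK2 nor VEGFA overlapped between the groups.

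Serine and one-carbon enzymes fell in 11 of 19 genes tested and rose in 1. PHGDH, the first step of serine synthesis, had 31.4, 35.7, 31.6 and 29.5 CPM with PRMT5i, against 139.9, 313, 191 and 192 CPM with DMSO, a log2 fold change of -2.71 ± 0.27. PSAT1, the second step, had 60.9, 70.2, 64.6 and 72.1 CPM with PRMT5i, against 103, 346, 316 and 268 CPM with DMSO, and PSPH, the last, had 38.1, 35.7, 36.3 and 35.6 CPM with PRMT5i, against 102, 78.5, 92.1 and 93.9 CPM with DMSO. All 3 enzymes of the pathway were lower in every PRMT5i library, and DMSO replicate 1 was the lowest DMSO library for PHGDH and PSAT1 and the highest for PSPH. SHMT2, which splits serine into glycine and a one-carbon unit in mitochondria, had 171, 162, 161 and 151 CPM with PRMT5i, against 420.4, 392.4, 333 and 352 CPM with DMSO, and its cytosolic twin SHMT1 fell by 0.56. The mitochondrial folate enzymes MTHFD1L and ALDH1L2 had log2 fold changes of -1.60 ± 0.16 and -1.74 ± 0.25, whereas the cytosolic MTHFD1 did not pass. The 1 gene that rose, SARDH, which breaks down sarcosine, changed by 0.78 ± 0.15, and without DMSO replicate 1 the number of higher genes was 2. CTH, which makes cysteine from cystathionine, had 5.76, 6.48, 5.06 and 4.996 CPM with PRMT5i, against 26.6, 24.8, 26.6 and 25.4 CPM with DMSO, and fell by 2.21 ± 0.12. CBS, the step before it, fell by 3.10, but the table holds 2 entries with this symbol, a gene and a near-identical copy, so its counts are uncertain.

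Amino acid transporters fell in 12 of 24 genes and rose in 4. SLC7A11, the cystine importer, had 8.99, 9.57, 6.93 and 8.48 CPM with PRMT5i, against 104, 46.6, 78.4 and 83.1 CPM with DMSO, and SLC3A2, the heavy chain that it shares with SLC7A5, had 94.8, 93.2, 90.7 and 84.7 CPM with PRMT5i, against 280.1, 285, 238 and 234 CPM with DMSO. Every PRMT5i library lay far below DMSO for both, with log2 fold changes of -3.20 ± 0.32 and -1.51 ± 0.13. SLC7A5, the importer of large neutral amino acids, had 114, 123, 125 and 116 CPM with PRMT5i, against 242, 512, 410.1 and 331 CPM with DMSO, with DMSO replicate 1 nearest to the PRMT5i range. SLC6A9, a glycine transporter, fell by 3.98 at a low level. SLC38A1 and SLC1A4, carriers of small neutral amino acids, had log2 fold changes of -1.27 ± 0.10 and -1.25 ± 0.14. In the other direction, SLC7A8 rose by 1.94 ± 0.46 at under 1 CPM, SLC43A2 rose by 0.77 ± 0.14, and SLC36A1, a lysosomal exporter, by 0.38 ± 0.11 with overlapping groups. The SLC36A1 call was lost when only the PRMT5i and DMSO libraries were fitted (log2 0.37).

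Cytosolic aminoacyl-tRNA synthetases, which load each amino acid on its tRNA, fell in 12 of 20 genes and rose in 0, with a median of -0.74. MARS, for methionine, had 105, 105, 104 and 95.1 CPM with PRMT5i, against 259, 329, 263 and 271 CPM with DMSO, the largest fall at -1.46 ± 0.15. GARS, for glycine, had 120.1, 131, 142 and 149.8 CPM with PRMT5i, against 284, 423, 316 and 322 CPM with DMSO, and SARS, for serine, had 95.8, 89.6, 89.5 and 88.02 CPM with PRMT5i, against 191, 172, 178 and 188 CPM with DMSO. None of these overlapped. IARS, for isoleucine, had 588, 557, 522 and 531 CPM with PRMT5i, against 1319, 887, 895 and 983 CPM with DMSO, with DMSO replicate 1 highest. AARS, for alanine, had 125, 147, 145 and 140.0 CPM with PRMT5i, against 109, 376, 262 and 217 CPM with DMSO, and DMSO replicate 1 lay below all PRMT5i libraries. The AARS call was lost in the fit of the 8 libraries alone (log2 -0.80), without DMSO replicate 2 (-0.49) and without PRMT5i replicate 1 (-0.74). The synthetases for histidine, glutamine, arginine, valine, aspartate, lysine and tyrosine did not pass, and neither did FARSA.

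The composite C/EBP-ATF element TGATGCAA was searched on both strands of the RefSeq promoters (GRCh38.p14). It was found in 6 of 16 synthetase promoters with a record, against 0.524% of 11067 promoters of tested genes and 0.923% of all promoters in the table. The 6 genes, MARS, CARS, IARS, TARS, NARS and AARS, all fell, with a median log2 fold change of -0.88. Of the 10 without a match, 5 fell, with a median of -0.28. The sites are shown for 5 of them, chosen after their values were seen, because the synthetases divide into those that fell and those that did not. Each stretch has 10 bases on both sides of the match, which is in capitals and reads TTGCATCA where it lies on the other strand. They lie at chr12:57488054-57488081 (plus strand) for MARS, chr11:3057408-3057435 (minus) for CARS, chr9:92293693-92293720 (minus) for IARS, chr5:33440957-33440984 (plus) for TARS and chr16:70289676-70289703 (minus) for AARS.
MARS: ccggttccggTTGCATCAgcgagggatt
CARS: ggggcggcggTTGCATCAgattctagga
IARS: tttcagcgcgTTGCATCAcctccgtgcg
TARS: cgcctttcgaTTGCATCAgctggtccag
AARS: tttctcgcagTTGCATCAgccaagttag
The match began 4, 2, 13 and 187 bases before the start site in MARS, CARS, IARS and AARS and 2 bases after it in TARS. Among ATF4 targets the element was found in 1 of 19 promoters, that of CHAC1, and in 1 of 13 promoters of serine and one-carbon genes, 1 of 19 of amino acid transporters and 1 of 13 of MHC class II genes.

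**Figure D4:**
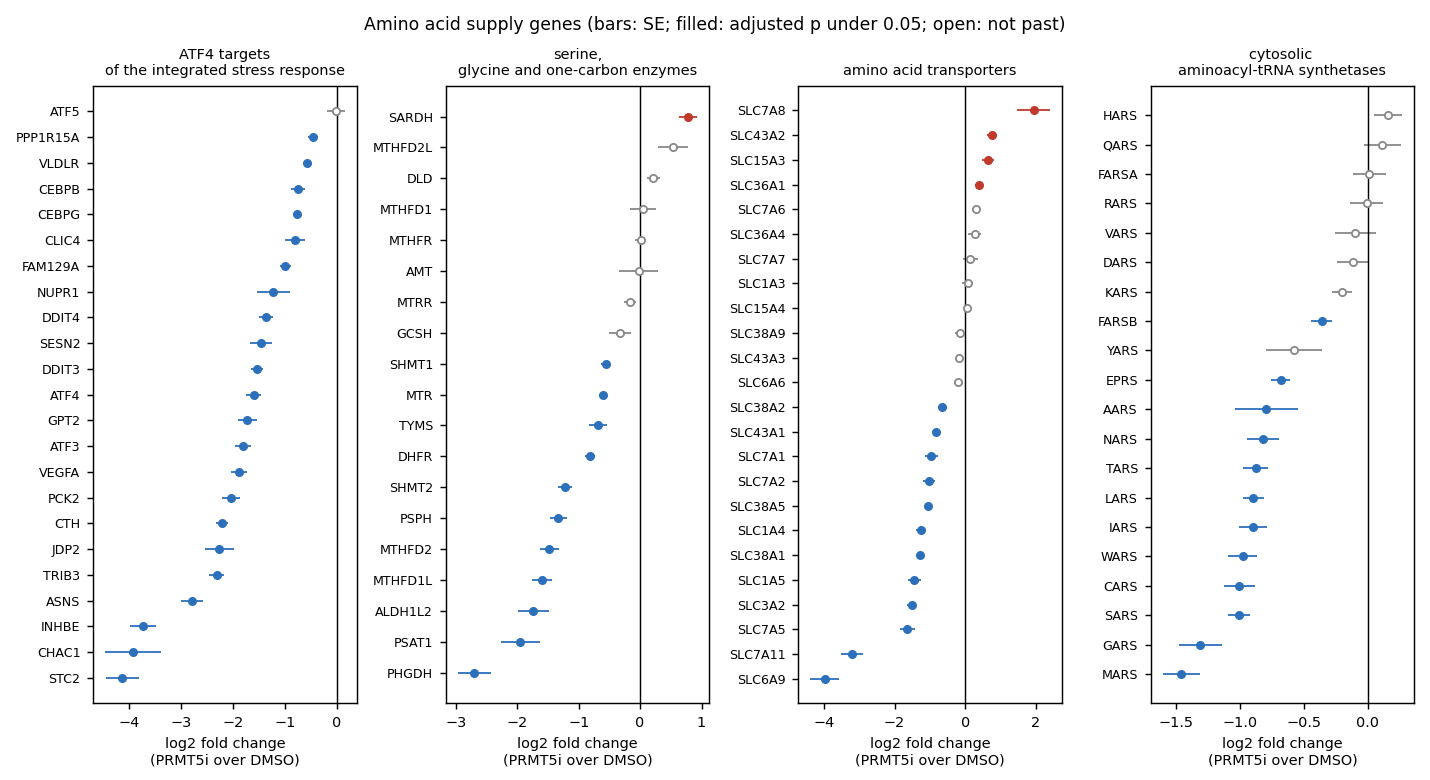
Log2 fold change, PRMT5i over DMSO, of every tested gene of 4 amino acid lists, with the SE as a bar. Filled points passed the adjusted p of 0.05 (red higher, blue lower) and open points did not. Of the ATF4 targets, 22 of 23 are filled and to the left of 0, and no synthetase is filled to the right of 0.

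Of all genes tested, 17.1% were higher and 18.3% lower. The share that fell was 57.1% in fatty acid synthesis and desaturation, 26.1% in sterol genes and 18.2% in fatty acid oxidation. The shares that rose were 14.3%, 0% and 30.3%. In fatty acid synthesis and desaturation, 8 of 14 genes fell and 2 rose. FADS1, the delta-5 desaturase of polyunsaturated fatty acids, had 33.7, 30.6, 26.9 and 26.9 CPM with PRMT5i, against 114, 86.3, 77.8 and 85.6 CPM with DMSO, a log2 fold change of -1.62 ± 0.12. SCD, the stearoyl-CoA desaturase, had 479, 499, 476 and 476 CPM with PRMT5i, against 810.0, 925, 813 and 805 CPM with DMSO, and ACSS2, which makes acetyl-CoA from acetate, had 42.7, 42.6, 42.4 and 38.95 CPM with PRMT5i, against 64.8, 62.3, 61.4 and 66.9 CPM with DMSO. None of the 3 overlapped, whereas ELOVL1 and ELOVL6 did not pass. The count of 2 higher genes was 1 without DMSO replicate 1, 3 or 4 or PRMT5i replicate 1, 2 or 4. Of 23 sterol genes, 6 fell and 0 rose, among them MVD (-0.93) and EBP (-0.74), while SQLE did not pass. Without DMSO replicate 2, 10 sterol genes fell and 3 rose, and without DMSO replicate 3 the higher count was 1. Fatty acid oxidation was mixed, with 10 of 33 higher and 6 lower: CD36, a scavenger receptor and fatty acid importer, had 21.4, 20.3, 34.01 and 37.7 CPM with PRMT5i, against 7.49, 4.27, 7.31 and 8.604 CPM with DMSO, and EHHADH, a peroxisomal enzyme, had 20.9, 22.2, 22.1 and 24.3 CPM with PRMT5i, against 9.23, 12.6, 13.1 and 12.5 CPM with DMSO, but ACADVL, the first mitochondrial dehydrogenase for very long chains, had 102, 102, 112 and 104 CPM with PRMT5i, against 196, 215, 178 and 188 CPM with DMSO. CES1, a carboxylesterase of monocytes that hydrolyses cholesteryl esters, had 244, 247, 322 and 316 CPM with PRMT5i, against 52.7, 80.2, 76.2 and 79.1 CPM with DMSO, a rise of 1.97 ± 0.14.

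Lysosomal genes rose in 20 of 55 tested and fell in 5, with a median of 0.22. CTSZ, a cathepsin, had 91.5, 96.3, 129.8 and 120.4 CPM with PRMT5i, against 32.1, 61.9, 51.2 and 49.5 CPM with DMSO, and GM2A, the activator that presents gangliosides to hexosaminidase, had 95.1, 90.5, 100.7 and 102 CPM with PRMT5i, against 59.6, 57.6, 60.7 and 66.8 CPM with DMSO. Both were higher in all PRMT5i libraries, by 1.17 ± 0.17 and 0.67 ± 0.07. CTSO rose by 1.39 ± 0.20 and GRN (progranulin) by 0.78 ± 0.18. ACP2, the lysosomal acid phosphatase, had 5.52, 5.54, 5.09 and 4.65 CPM with PRMT5i, against 7.54, 9.91, 7.78 and 8.25 CPM with DMSO, and fell by 0.68 ± 0.13. TFEB, a factor that drives lysosomal genes, rose by 0.63 ± 0.16. CTSB, CTSC and LAMP2 did not pass. With replicates 1 and 2 alone, 4 lysosomal hydrolases and membrane proteins were higher.

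Nucleotide synthesis genes fell in 15 of 28 and rose in 1. IMPDH2, the rate-limiting enzyme of guanine nucleotide synthesis, had 303, 296, 297 and 286 CPM with PRMT5i, against 499.9, 456, 492 and 519.9 CPM with DMSO. The groups did not overlap. The gene that rose was SAMHD1, which breaks down deoxynucleotides, with 269, 267, 333 and 348 CPM with PRMT5i, against 82.5, 83.1, 110.1 and 114 CPM with DMSO, a change of 1.64 ± 0.13 (10.3% of its exon bases are shared with TLDC2). The count of 1 higher gene was 2 without DMSO replicate 3 or PRMT5i replicate 1. ODC1, the entry to polyamine synthesis, had 127, 118, 109 and 111 CPM with PRMT5i, against 281, 198, 182 and 198 CPM with DMSO, and fell by 0.89 ± 0.11.

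Glycolytic genes fell in 11 of 26 and rose in 3, with a median of -0.09. PDK1, which closes pyruvate dehydrogenase, had 21.01, 21.5, 22.7 and 23.9 CPM with PRMT5i, against 53.1, 33.5, 48.8 and 50.2 CPM with DMSO, and PFKL had 119, 116, 140.1 and 112 CPM with PRMT5i, against 183, 201, 180.1 and 172 CPM with DMSO, whereas HK3, the hexokinase of myeloid cells, rose by 1.64 ± 0.19 and SLC2A1, a glucose importer, by 0.61 ± 0.11. SLC2A3, another importer, fell by 0.77. Of 79 nuclear genes of the respiratory chain and ATP synthase, 21 fell and 4 rose, none by as much as 1 on the log2 scale. Without DMSO replicate 2, 32 of these fell, and without PRMT5i replicate 2 the higher count was 2. Of 77 mitochondrial ribosomal protein genes, 26 fell and 2 rose, and without DMSO replicate 2 the higher count was 6. Among iron and heme genes, 8 of 24 rose and 3 fell. HMOX1, heme oxygenase 1, had 8.18, 8.02, 6.93 and 5.37 CPM with PRMT5i, against 2.74, 3.52, 2.96 and 2.11 CPM with DMSO, and IREB2, an iron-sensing regulator of RNA, had 204, 205, 223 and 245 CPM with PRMT5i, against 119, 112, 119 and 134 CPM with DMSO. In the same cells 8 of 24 endoplasmic reticulum chaperone genes rose and 3 fell. HSP90B1 (GRP94) had 749.8, 766, 685 and 738 CPM with PRMT5i, against 391, 451, 467 and 489 CPM with DMSO, a rise of 0.71 ± 0.11 that left no overlap. The 8 were 5 without PRMT5i replicate 2, and the 3 were 1 without DMSO replicate 1 and 0 when DMSO replicate 4 or PRMT5i replicate 3 or 4 was left out.

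DNA replication is licensed when ORC, CDC6 and CDT1 load the MCM helicase on origins, and CDC45 and GINS then activate it. Of 24 such genes, 21 fell, 16 by at least 1 on the log2 scale, and 1 rose, with a median of -1.21. MCM7, a helicase subunit, had 133, 136, 127 and 112 CPM with PRMT5i, against 357, 360.3, 308 and 318 CPM with DMSO, a log2 fold change of -1.40 ± 0.09 (edgeR adjusted p = 2.01e-08). CDC6 had 25.8, 26.1, 23.3 and 22.9 CPM with PRMT5i, against 69.97, 60.1, 57.1 and 64.3 CPM with DMSO, and CDC45 had 14.8, 13.8, 12.99 and 11.2 CPM with PRMT5i, against 47.1, 46.2, 46.7 and 48.7 CPM with DMSO. None of these genes overlapped, and in each the PRMT5i libraries lay well below the lowest DMSO library. CDT1, the licensing factor, had 19.2, 21.4, 22.8 and 18.99 CPM with PRMT5i, against 37.8, 80.7, 52.6 and 45.8 CPM with DMSO, with DMSO replicate 2 far above the rest. ORC5 rose by 0.28 ± 0.11 and ORC2 and ORC4 did not pass. ORC5 no longer passed without any 1 PRMT5i library or without DMSO replicate 1 or 2 (0.20 to 0.31).

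E2F factors drive these genes at the end of the first growth phase, through sites such as TTTCGCGC and TTTGGCGC. Either word on either strand was found in 7 of 21 licensing promoters with a record, against 1.18% of all 27305 promoters and 2.10% of 11067 promoters of tested genes. All 7 genes fell (MCM2, MCM3, MCM6, MCM7, MCM8, CDC6 and GINS1), with a median of -1.22, and the 14 without a match, of which 11 fell and 1 rose, had a median of -1.12. Shown are the sites of 4 genes, chosen after their values were seen, that lie within a few bases of the start. They lie at chr7:100101389-100101416 (minus strand) for MCM7, chr17:40287876-40287903 (plus) for CDC6, chr3:127598403-127598430 (plus) for MCM2 and chr6:52284729-52284756 (minus) for MCM3, in GRCh38.p14, with the word in capitals.
MCM7: gggggcgacgTTTCGCGCcaatttcggt
CDC6: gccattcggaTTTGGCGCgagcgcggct
MCM2: gtgaaccactTTTCGCGCgaaacctggt
MCM3: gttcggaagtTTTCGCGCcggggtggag
The word began 9 and 4 bases before the start in MCM7 and MCM3 and 7 and 2 bases after it in CDC6 and MCM2. In MCM2 a second match on the other strand overlaps the one shown. Of the genes not shown, GINS1 had its match 5 bases after the start and MCM8 26 bases after it. The 4 matches in MCM6 began 86 to 152 bases before the start.

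At the fork, 28 of 36 replisome and nucleotide supply genes fell and 0 rose, with a median of -0.93. POLA1, the catalytic subunit of DNA polymerase alpha, had 29.2, 29.2, 24.9 and 27.1 CPM with PRMT5i, against 80.1, 76.7, 78.2 and 85.6 CPM with DMSO, and POLD1, the catalytic subunit of the lagging-strand polymerase, had 61.3, 62.1, 60.5 and 52.1 CPM with PRMT5i, against 149, 185, 158 and 142 CPM with DMSO. Both were lower in every PRMT5i library, with log2 fold changes of -1.54 ± 0.09 and -1.43 ± 0.12. RFC4, a clamp loader subunit, fell by 1.52, while POLE3 and POLE4 did not pass. The higher count was 1 without DMSO replicate 2. Of 20 E2F and RB family genes, 11 fell and 0 rose. E2F1 had 6.42, 7.49, 7.21 and 6.11 CPM with PRMT5i, against 18.8, 19.3, 18.3 and 17.7 CPM with DMSO, and E2F2 fell by 1.23, whereas E2F3 and E2F4 did not pass. The higher count was 1 without DMSO replicate 1 or PRMT5i replicate 3 or 4.

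Cyclins and cell cycle kinases fell in 19 of 25 genes and rose in 0, with a median of -0.99. CDC25A, the phosphatase that activates the kinases of S phase entry, had 17.2, 17.2, 14.6 and 15.4 CPM with PRMT5i, against 41.1, 39.5, 32.7 and 34.8 CPM with DMSO, and CCNB2, a mitotic cyclin, had 28.5, 26.8, 23.4 and 23.4 CPM with PRMT5i, against 74.5, 59.7, 52.5 and 56.9 CPM with DMSO. CCNA2, the cyclin of S phase and G2, had 59.9, 55.7, 47.8 and 49.5 CPM with PRMT5i, against 191, 98.8, 129 and 137 CPM with DMSO, with DMSO replicate 1 highest. CDK6 and CCND3, which act earlier in the cycle, did not pass, nor did CHEK2. The higher count was 1 without DMSO replicate 1. Spindle, kinetochore and condensin genes fell in 46 of 50. CENPH, a kinetochore protein, had 9.81, 10.4, 10.01 and 11.5 CPM with PRMT5i, against 58.2, 32.3, 43.5 and 43.99 CPM with DMSO, the largest fall of that list at -2.09 ± 0.17, and KIF2C, a microtubule-depolymerising motor, had 37.1, 37.9, 31.4 and 30.9 CPM with PRMT5i, against 97.5, 85.6, 73.9 and 76.8 CPM with DMSO. Of the other 4, BUB3, KIF18B and NCAPD2 did not pass and SMC4, a condensin subunit, rose by 0.44 ± 0.11. Without DMSO replicate 1, KIF18B (-0.83) and NCAPD2 (-0.54) passed, and without DMSO replicate 2, BUB3 (-0.30). SMC4 shares 18.5% of its exon bases with TRIM59. Of 6 CDK inhibitors tested, CDKN2C (p18) rose by 0.36 ± 0.06, CDKN1A (p21) had 170.3, 169, 182 and 168 CPM with PRMT5i, against 222, 231, 223 and 219.6 CPM with DMSO, and fell by 0.38 ± 0.07, and CDKN1B did not pass. CDKN2A and CDKN2B had 0 counts in every library.

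Replication-dependent histone genes, which are transcribed in S phase, fell in 58 of 60 tested of 72 listed, and in 54 the fall was 1 log2 unit or more, with a median of -1.72. HIST1H2BG had 68.6, 63.7, 57.2 and 54.9 CPM with PRMT5i, against 356, 248, 217 and 214 CPM with DMSO, HIST1H2BJ had 52.4, 49.9, 39.98 and 35.4 CPM with PRMT5i, against 251, 191, 182 and 166 CPM with DMSO and HIST1H2AJ had 32.1, 31.3, 31.7 and 23.4 CPM with PRMT5i, against 142, 142, 124 and 106 CPM with DMSO. In these 3 genes the groups were far apart and DMSO replicate 4 was the lowest DMSO library. Together the 72 listed members summed to 2787 to 3545 CPM with PRMT5i, against 8783 to 11711 CPM with DMSO. The 2 that did not pass were HIST4H4 and HIST2H2BC, and HIST4H4 passed without DMSO replicate 1, at -0.32. Most transcripts of these genes lack a poly(A) tail; the labels give total RNA and do not say whether polyadenylated RNA was selected. Several histone genes are near-identical in sequence, so reads may be divided between them.

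Genes of homologous recombination and the Fanconi anaemia pathway fell in 28 of 30 and rose in 0, with a median of -1.03. FANCD2, the protein that is ubiquitinated at stalled forks, had 22.6, 23.2, 18.9 and 21.998 CPM with PRMT5i, against 80.98, 71.4, 60.4 and 70.96 CPM with DMSO, a log2 fold change of -1.71 ± 0.10 (edgeR adjusted p = 2.90e-09). FANCI, its partner, had 39.8, 38.9, 32.9 and 34.7 CPM with PRMT5i, against 110.0, 95.3, 99.7 and 110.2 CPM with DMSO, and XRCC2, a recombination protein, had 9.27, 8.66, 7.65 and 8.23 CPM with PRMT5i, against 30.2, 22.8, 26.3 and 27.8 CPM with DMSO. No values overlapped. FANCF and RMI1 did not pass.

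Of 35 MYC target and ribosome biogenesis genes, 13 fell and 1 rose, and the higher count was 3 without DMSO replicate 2. NOP56, a nucleolar box C/D protein, had 230.2, 238, 247 and 237 CPM with PRMT5i, against 333, 404, 349.7 and 366 CPM with DMSO, and fell by 0.61 ± 0.08, but NCL, NOLC1 and MYC (log2 fold change -0.35 ± 0.17) did not pass. MYC passed without DMSO replicate 1, at -0.54. Of 82 cytosolic ribosomal protein genes, 1 rose and 2 fell, and without DMSO replicate 2 these counts were 7 and 22. The lower count was 1 without DMSO replicate 1 or 4 or any PRMT5i library. Of 29 p53 targets, 9 rose and 9 fell. ZMAT3, an RNA-binding target of p53, had 51.5, 58.2, 66.8 and 72.3 CPM with PRMT5i, against 26.3, 30.8, 33.5 and 33.4 CPM with DMSO, a rise of 1.00 ± 0.14, and SESN1 rose by 0.58 ± 0.10, whereas SESN2, which also answers to ATF4, had 13.7, 13.4, 14.7 and 13.8 CPM with PRMT5i, against 31.9, 46.2, 39.1 and 35.5 CPM with DMSO, and fell by 1.46 ± 0.22. MDM2 did not pass. In the BCL2 family, MCL1 had 348, 347, 339 and 359.9 CPM with PRMT5i, against 221, 221, 264 and 256 CPM with DMSO, a rise of 0.54 ± 0.09, and BMF, a killer member, rose by 0.59 ± 0.16, while BCL2 had 201, 205, 172 and 180.0 CPM with PRMT5i, against 270.0, 271, 301 and 298 CPM with DMSO. The MCL1 and BCL2 libraries did not overlap between the groups. Of 14 family members tested, 4 (28.6%) rose and 3 (21.4%) fell, against 17.1% and 18.3% of all genes tested. BBC3, a member of this list and of the p53 list, had the smallest p in both and fell. Its fall was the largest of the family among members that averaged at least 1 CPM in the higher group.

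Of 13 genes for PRMT5 partners and arginine methyltransferases, 6 fell and 1 rose. WDR77 had 37.1, 35.3, 33.8 and 33.7 CPM with PRMT5i, against 49.4, 46.4, 43.5 and 46.2 CPM with DMSO, and fell by 0.41 ± 0.07, with 24% of its exon bases shared with another gene. EZH2, the target of the other inhibitor, had 22.99, 25.4, 24.8 and 26.2 CPM with PRMT5i, against 21.5, 42.5, 43.8 and 42.4 CPM with DMSO, and fell by 0.60 ± 0.16, with DMSO replicate 1 below all PRMT5i libraries. PRMT2, a related methyltransferase, rose by 0.40 ± 0.07. The count of 6 was 3 without DMSO replicate 4 or PRMT5i replicate 1. Of 31 genes for Sm and LSM proteins and their assembly factors, which include classical PRMT5 substrates, 13 fell and 1 rose. SNRPD1 had 87.4, 88.4, 78.03 and 90.2 CPM with PRMT5i, against 109, 102, 117 and 123 CPM with DMSO, and LSM4 had 72.4, 69.8, 64.5 and 63.8 CPM with PRMT5i, against 139.5, 133, 129.9 and 118 CPM with DMSO, the 2 being below DMSO in every library. The count of 13 was 8 without PRMT5i replicate 3 and 7 without PRMT5i replicate 4, and the higher count was 0 without DMSO replicate 1 or PRMT5i replicate 2 or 4, 2 without DMSO replicate 4 and 3 without DMSO replicate 2. HNRNPR, an RNA-binding protein, had 98.4, 98.4, 88.2 and 99.7 CPM with PRMT5i, against 179.7, 177, 186 and 193 CPM with DMSO, and fell by 0.94 ± 0.07, in a list of 33 SR and hnRNP genes where 3 rose and 3 fell. Without DMSO replicate 2 these were 5 and 6.

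The same inhibitor was also given together with EZH2i, and the combination against EZH2i compares none of the 8 libraries above. Both pairs were tested in 1 fit of all 16 libraries that share 1 estimate of spread, so the calls are not independent. For the combination against EZH2i, 4633 of 16555 genes (28%) passed, 2221 (13.4%) higher and 2412 (14.6%) lower. Of the 2824 genes raised by PRMT5i over DMSO, 1598 were also raised there, which is 56.6% of the 2824 and 71.9% of the 2221, and 1 went the other way. Of the 3023 lowered genes, 1889 were also lowered, 62.5% of the 3023 and 78.3% of the 2412, and 5 went the other way. The median log2 fold change of the raised genes was 0.68 with PRMT5i over DMSO and 0.45 with the combination over EZH2i, and those of the lowered genes were -0.63 and -0.44. Genes chosen for passing in 1 pair tend to have smaller values in another, and the part of this in these medians was not tested. ITGAM changed by 1.03 ± 0.10 and CD180 by 1.16 ± 0.08 there, FADS1 by -1.71 ± 0.12, PHGDH by -2.15 ± 0.26 and MCM7 by -1.02 ± 0.09.

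A test of the difference between the 2 effects passed for 48 genes (0.29%), 42 of them (0.254%) with a more positive effect of PRMT5i in the presence of EZH2i and 6 (0.0362%) with a less positive one. Genes known to be induced by interferon stand among the 42. IFI6 averaged 80.5 ± 6.14 CPM with the combination, against 23.2 ± 1.75 CPM with EZH2i, and 55.1 ± 6.73 CPM with PRMT5i, against 41.96 ± 2.15 CPM with DMSO (SD, n = 4 each). The log2 fold change was 1.79 ± 0.10 in the first pair and 0.39 ± 0.10 in the second, a difference of 1.40 ± 0.14 (edgeR adjusted p = 1.43e-04). CXCL10, a chemokine induced by interferon, averaged 6.08 ± 0.8201 CPM with the combination, against 0.896 ± 0.0423 CPM with EZH2i, and 4.17 ± 0.745 CPM with PRMT5i, against 7.46 ± 3.06 CPM with DMSO, so it rose in the first pair and fell in the second, where the groups overlapped. OAS1, MX2, EPSTI1, HERC5 and MX1 showed differences of 1.39 ± 0.14, 1.38 ± 0.16, 1.65 ± 0.20, 1.27 ± 0.16 and 1.74 ± 0.23. In PRMT5i against DMSO alone, OAS1, EPSTI1 and HERC5 did not pass, and MX1 rose by 0.77 ± 0.16 and MX2 by 0.57 ± 0.11.

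Of the 48, 8 were members of a gene list. They were SIGLEC6, CXCR3, ACSL1, the ATF4 targets DDIT3 and CTH, the licensing gene CDC45 and the histone genes HIST1H4I and HIST3H2BB. CTH had log2 fold changes of -1.12 ± 0.11 in the combination over EZH2i and -2.21 ± 0.12 in PRMT5i over DMSO, and CDC45 had -1.20 ± 0.08 and -1.84 ± 0.09. Among the 6 of opposite sign, PDGFRB averaged 3.28 ± 0.309 CPM with the combination, against 1.21 ± 0.172 CPM with EZH2i, and 4.85 ± 0.889 CPM with PRMT5i, against 0.763 ± 0.0772 CPM with DMSO. CXCR3 averaged 2.24 ± 0.293 CPM with the combination, against 0.957 ± 0.324 CPM with EZH2i, and 4.12 ± 0.477 CPM with PRMT5i, against 0.627 ± 0.124 CPM with DMSO. FAM46C, a poly(A) polymerase of B lineage cells, rose by 1.32 ± 0.15 over DMSO, and its change of 0.03 ± 0.15 over EZH2i did not pass. The number 48 was 28 without PRMT5i replicate 3, 29 without PRMT5i replicate 4 and 31 when EZH2i replicate 2 was left out, and leaving out DMSO replicate 2 gave 124.

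**Figure D5:**
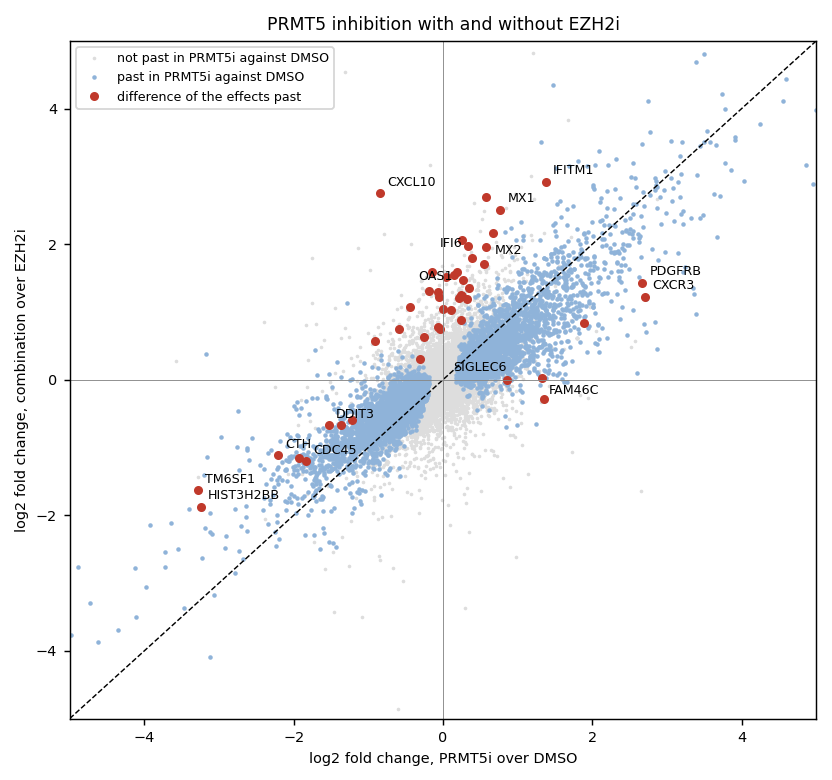
Log2 fold change of each tested gene with PRMT5i over DMSO (horizontal) and with the combination over EZH2i (vertical), with the line of equal change dashed. Red points are the 48 genes whose 2 effects differed past the adjusted p of 0.05. Most of the others that passed over DMSO lie in the same direction on both axes, 21 genes lie outside the plotted range, and interferon-stimulated genes such as MX1 stand above the line.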

How the data were processed

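RNA of 16 MOLM-13 libraries was sequenced with paired ends. The authors deposited 1 table of expected counts per gene, estimated with RSEM after alignment with STAR 2.5.3 to GRCh38.p7, per the submitters' processing notes. The RSEM version, the annotation and the use of strand are not given in the sources used here. Of the values, 12.0% were not whole, and all were rounded. Genes were kept by edgeR's filterByExpr (minimum count 10), scaled by TMM and tested with the quasi-likelihood test of edgeR 4.0.16 in R 4.3.3, with 4 group means over all 16 libraries, which share 1 estimate of spread. P-values were adjusted over all 16555 genes tested, and a gene passed under 0.05. CPM values use TMM-scaled library sizes, and fold changes are PRMT5i over DMSO with edgeR's default prior count of 0.125. DESeq2 1.42.0 was an alternative. The fit was tested on simulated data.

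The members and the 61 gene lists were chosen with earlier results of these data known. Named genes were drawn from PRMT5 and EZH2, the 15 with the largest change in each direction with a mean of at least 5 CPM, the 4 smallest p-values and the extremes of each list, and 8 genes for the difference, and further members were named after their values were seen. Genes that share 10% or more of their exon bases with another gene in GENCODE v29, or have near-identical copies, are given as uncertain. Promoters come from RefSeq (GRCh38.p14), as 250 bases before to 50 after a start. Figures were drawn with matplotlib 3.10.9. TRBC1, of the T cell list, was not in the table. The libraries held 31142456 to 52885899 counts, and no 2 replicates agreed within sampling noise.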

Additional observations from a re-analysis of the deposited data

Results flagged for a closer look

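In some genes named above, 1 of the 4 libraries of a group stood apart from the other 3 by more than Dixon's 95% critical value. Chance alone marks about 1 in 20 groups in this way, and 38 of 520 groups were marked, in 36 genes. PRMT5i replicate 1 stood apart for TLR4 (14.1 CPM) and E2F2 (5.74 CPM). For PRMT5i replicate 2 the gene was SCD (499 CPM). PRMT5i replicate 3 was the library apart in ATF4 (222 CPM), DNMT3B (11.2 CPM), CD180 (84.1 CPM), ATF3 (4.11 CPM), ACADVL (112 CPM), CCND3 (210.0 CPM) and HNRNPR (88.2 CPM). In NCF4 (90.1 CPM), TLR2 (78.2 CPM), CD84 (66.9 CPM), SHMT1 (13.7 CPM), MARS (95.1 CPM), ACSS2 (39 CPM), ELOVL1 (24.9 CPM), POLD1 (52.1 CPM) and HIST1H2AJ (23.4 CPM) it was PRMT5i replicate 4. DMSO replicate 1 stood apart for EZH2 (21.5 CPM), BCL6 (1.72 CPM), EGR1 (4.05 CPM), TAP1 (62.4 CPM), CXCR3 (0.444 CPM), EHHADH (9.23 CPM), CES1 (52.7 CPM), ODC1 (281 CPM), POLE3 (157 CPM), BMF (20.2 CPM) and DDIT3 (38.1 CPM). For DMSO replicate 2 the genes were ANPEP (0.811 CPM), ITGAX (37.2 CPM), TNFSF13B (30.9 CPM), MARS (329 CPM), SCD (925 CPM), GINS1 (40.3 CPM), RMI1 (22.3 CPM) and MDM2 (242 CPM).

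The effect of PRMT5i differed between cells with and without EZH2i for 17 of the genes named above, by the test of the difference of the 2 log2 fold changes (edgeR adjusted p under 0.05). The log2 fold change was more positive with the combination over EZH2i than with PRMT5i over DMSO for CTH (1.09), CDC45 (0.64), IFI6 (1.40), CXCL10 (3.60), OAS1 (1.39), MX2 (1.38), EPSTI1 (1.65), HERC5 (1.27), MX1 (1.74), ACSL1 (0.63), DDIT3 (0.86), HIST1H4I (0.78) and HIST3H2BB (1.37). It was less positive for CXCR3 (-1.48), SIGLEC6 (-0.86), PDGFRB (-1.24) and FAM46C (-1.30).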

How the results depend on the processing

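The count of 5847 genes past the threshold was 5586 with total-count scaling, 5846 with relative log expression scaling, 5111 with no filter on low counts, 6229 with DESeq2 and 4875 when only the PRMT5i and DMSO libraries were fitted. Leaving out 1 library at a time gave 4898 to 6853 genes, 2272 to 3435 of them higher and 2552 to 3418 lower. With replicates 1 and 2 alone, chosen after seeing the data, 1469 genes passed (636 higher and 833 lower), and for the combination against EZH2i 1001. Requiring an absolute log2 fold change of at least 1 left 1564 genes, 813 higher and 751 lower. Leaving out 1 library gave 3714 to 4915 genes for the combination against EZH2i. The 48 genes with a difference of effects were 120 with DESeq2 and 28 to 124 without 1 library, 295 with replicates 3 and 4 alone and, in edgeR, 0 with replicates 1 and 2 alone, where 514 genes had an unadjusted p under 0.05. The causes were not tested. With the replicate number as a block 5939, 4740 and 50 genes passed in the 3 tests. The correlations of same-numbered PRMT5i and DMSO libraries were 0.144, 0.0176, -0.0331 and 0.00457, so the numbers were not taken as pairs. Of the genes named above that passed, 206 were checked under other settings. Of these, 190 passed in the same direction under every other scaling, filter, tool, block and left-out library above. At this depth, genes that reached about 0.242 CPM in fewer than 4 of the 16 libraries were not tested.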

Other observations

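Of 222 solute carrier genes tested, 45 (20.3%) were higher and 55 (24.8%) lower with PRMT5i than with DMSO, near the 17.1% and 18.3% of all genes tested. Of 71 adhesion G protein-coupled receptor, GPR, purine and lipid receptor genes, 21 (29.6%) rose and 13 (18.3%) fell, with a median log2 fold change of 0.05. LPAR5, a receptor for lysophosphatidic acid, had 5.34, 5.098, 5.599 and 5.54 CPM with PRMT5i, against 1.25, 2.71, 0.713 and 1.26 CPM with DMSO, and GPR183, which follows oxysterols, had 48.9, 43.2, 45.3 and 50.4 CPM with PRMT5i, against 13.5, 7.39, 10.1 and 11.8 CPM with DMSO. Both rose without overlap, by 1.89 ± 0.28 and 2.13 ± 0.16 on the log2 scale. GPR84, a receptor for medium-chain fatty acids, had 5.197, 4.903, 4.74 and 4.62 CPM with PRMT5i, against 12.2, 13.9, 14.9 and 13.9 CPM with DMSO, with no overlap, and the purinergic channel P2RX7 had 28.7, 28.2, 25.9 and 28.5 CPM with PRMT5i, against 48.3, 50.3, 57.8 and 55.6 CPM with DMSO.

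By gene type, 2482 of 12861 protein-coding genes (19.3%) were higher and 2604 (20.2%) lower with PRMT5i, against 17.1% and 18.3% of all genes tested. Of 702 long intergenic RNA genes, 89 (12.7%) were higher and 100 (14.2%) lower. Of 985 antisense genes, 96 (9.7%) were higher and 130 (13.2%) lower. Reads of antisense genes cannot be told apart from those of their partner where strand was not used in counting.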
